A study of Mus musculus with 21 samples.

Results

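The genes described here are those with which the brain packages, exports and takes up lipid in lipoprotein particles. They were chosen by symbol from the table of reads counted per gene, with earlier results of these data known. The list was *Clu*, *Apoe*, *Abca1*, *Abcg1*, *Lrp1*, *Lrp8*, *Vldlr*, *Lpl*, *Nr1h2* and *Cd36*, and all 10 were found among the 21654 genes of the table. Of these, 9 averaged at least 50 reads over the libraries (the High Filter) and were tested together with the other genes that did, 12768 in all, while *Cd36* did not reach that level. In the brain, lipoproteins are assembled locally, largely by glia, around apolipoprotein E and clusterin. The transporters *Abca1* and *Abcg1* load these particles with cholesterol and phospholipid, and receptors of the LDL receptor family on neurons and glia take them up. Liver X receptors, of which *Nr1h2* encodes the beta form, sense oxidized cholesterol and switch on *Apoe* and both transporters.

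RNA was sequenced from the ventral hypothalamus (VH, called circumventricular hypothalamus in the labels) of male C57BL/6J mice, obtained at 12 to 14 weeks of age. Mice ate regular chow (RC) or high-fat diet (HFD) for several weeks, after which each diet was either kept for the last week (NoDS) or replaced by the other in a diet switch (DS). There were 5 libraries of RC NoDS, 6 of RC → HFD, 5 of HFD → RC and 5 of HFD NoDS, and all mice were kept awake for 3 hours before tissue was taken in the light phase. Each of the 21 libraries pooled RNA from 2 mice of the same diet, so the spread between libraries is that between pools and not between single mice. RC NoDS and HFD NoDS differ in long-term diet, the DS groups ate opposite diets both before and after the switch, and the interaction asks whether the effect of the present diet depends on the earlier one. The study reports that HFD NoDS mice were the heaviest and RC NoDS mice the lightest. The DS groups lay between them with similar body weight, one gaining and the other losing weight. Diet and body weight therefore cannot be told apart between RC NoDS and HFD NoDS. Counted reads summed to between 16380781 and 16390598 per library.

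Markers of the labelled tissue and of its neighbours were read. All 6 arcuate nucleus markers averaged at least 50 reads, led by *Pomc* with a mean count of 8304, as did all 6 tanycyte markers, led by *Col23a1* with 3873. Both lateral hypothalamus markers (*Pmch* 1079 on average) and 4 of 5 pituitary markers (*Cga* 258) passed it too, so this level does not separate the VH from its neighbours. All 10 astrocyte, 10 microglia and 10 oligodendrocyte markers also passed that level, so the glia that make lipoproteins were represented in these libraries. In bulk tissue, fewer cells of a type and less RNA per cell cannot be told apart, and this holds for every difference given below.

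The libraries also differed in their share of zero counts, both between and within diet groups. Among the 3116 genes averaging from 5 to 50 reads, the share with a count of 0 was 3.22% ± 2.42 for RC NoDS (SD, n = 5), 11.9% ± 8.82 for RC → HFD (n = 6), 16.5% ± 10.3 for HFD → RC (n = 5) and 16.3% ± 9.93 for HFD NoDS (n = 5). The highest share in RC NoDS was 7.22% and the lowest in HFD NoDS was 7.7%, so those groups did not overlap. Within RC → HFD, replicates 7 to 9 had 3.4%, 2.31% and 6.58%, whereas replicates 10 to 12 had 19.2%, 17.6% and 22.4%. HFD → RC ran from 5.68% to 31.9%, so it overlapped every other group. The shares were highest in HFD NoDS replicate 20 (32.9%) and HFD → RC replicate 17 (31.9%).

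The 10 genes covered a wide range of levels. Per kilobase of exon, the mean over 21 libraries was 23446 reads for *Apoe*, 4514 for *Clu*, 620 for *Lrp1*, 378 for *Abcg1* and 228 for *Nr1h2*. It was 151 for *Lrp8*, 107 for *Vldlr*, 97.0 for *Abca1*, 12.03 for *Cd36* and 10.8 for *Lpl*. The secreted apolipoproteins thus stood above every receptor and transporter of the list on this scale, and the *Apoe* level was 5.19 times that of *Clu* and 2176 times that of *Lpl*. By mean count, *Apoe* ranked 2 and *Clu* 76 among all genes of the table. *Apoe* took a median of 0.280% of all counted reads and *Clu* 0.0931%.

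*Clu* encodes clusterin (apolipoprotein J), a secreted chaperone that also circulates on lipoproteins. It lies on chromosome 14 from 66587320 to 66600385 of mm9 on the forward strand (ENSMUSG00000022037), and no other annotated gene overlaps it. In RC NoDS, replicates 1, 2, 3, 5 and 6 had *Clu* counts of 13953, 12745, 14244, 14065 and 15255. In HFD NoDS, replicates 19, 20, 21, 23 and 24 had counts of 16637, 17403, 16397, 18773 and 15716. All libraries of HFD NoDS lay above all libraries of RC NoDS, with the lowest of the former just above the highest of the latter. Such a lack of overlap between these groups, in either direction, was found for 0.893% of tested genes (114 of 12768).

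Both DS groups lay in between. In HFD → RC, replicates 13 to 17 had *Clu* counts of 15022, 17131, 15471, 15218 and 14929, and in RC → HFD the lowest, median and highest counts were 14412, 15369.5 and 16621. The group means were 14052 ± 895 for RC NoDS (SD, n = 5), 15487 ± 758 for RC → HFD (n = 6), 15554 ± 906 for HFD → RC (n = 5) and 16985 ± 1167 for HFD NoDS (n = 5). The groups without a switch thus stood at both ends of the order, while the switched groups were almost equal and overlapped each other and both end groups.

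*Clu* was higher in HFD NoDS than in RC NoDS by 0.29 on the log2 scale (standard error 0.0594, 1.22-fold, edgeR quasi-likelihood test, adjusted p = 0.0507). It was 1 of 10 genes called in this comparison at an adjusted p under 0.15, which is 0.0783% of those tested (8 higher and 2 lower in HFD NoDS), and it stood eighth by p. The difference was small beside those of many other genes, as 1580 tested genes (12.4%) had a larger absolute log2 fold change. Its spread within groups was also small, with a standard deviation of 0.0915 on the log2 scale against 0.211 for the median tested gene, and 4.1% of tested genes had a smaller one. The call was lost when RC NoDS replicate 1 (adjusted p = 0.175), RC NoDS replicate 2 (0.285), HFD NoDS replicate 20 (0.161) or HFD NoDS replicate 23 (0.262) was left out, with log2 fold changes of 0.28, 0.26, 0.27 and 0.26. It was also lost in edgeR with no filter on low counts (0.28, adjusted p = 0.160) and with only the libraries of these groups (0.29, adjusted p = 0.353). The same held with the share of ribosomal RNA reads (0.28, adjusted p = 0.564) or of zero counts (0.26, adjusted p = 0.864) as a covariate. In the values the study lists, ribosomal RNA shares ran higher in HFD NoDS than in RC NoDS, with overlapping ranges.

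Neighbours in the order of *Clu* levels did not pass the test. The log2 fold change was 0.17 for RC → HFD against RC NoDS (standard error 0.0569, edgeR adjusted p = 0.673), 0.0054 for HFD → RC against RC → HFD (0.0568, adjusted p = 0.99992) and −0.12 for HFD → RC against HFD NoDS (0.0593, adjusted p = 0.635). Groups further apart gave 0.17 for HFD → RC against RC NoDS (0.0593, adjusted p = 0.365) and 0.13 for HFD NoDS against RC → HFD (0.0567, adjusted p = 0.636). The comparisons share libraries and are therefore not independent of one another. In RC → HFD against RC NoDS, DESeq2 gave *Clu* a log2 fold change of 0.16. The adjusted p from DESeq2 was 0.502 over 12767 of the same genes. It was 0.0972 when DESeq2's own filter on mean count kept 886 genes for the adjustment, so a call there rested on that filter. The interaction was −0.046 (standard error 0.0821, edgeR adjusted p = 0.924), so a dependence of the effect of the present diet on the earlier diet was not detected for this gene.

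*Apoe* encodes the main apolipoprotein of brain lipoproteins. The gene is on the reverse strand of chromosome 7 from 20281458 to 20284515 (ENSMUSG00000002985) and is overlapped by no other annotated gene. Its counts in RC NoDS replicates 1, 2, 3, 5 and 6 were 41268, 37188, 43609, 46304 and 53037. In HFD NoDS replicates 19, 20, 21, 23 and 24 they were 48010, 58948, 45829, 54427 and 43901. These groups overlapped widely, and 1 library of RC NoDS, replicate 6, lay above all but a pair of HFD NoDS libraries.

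In HFD → RC replicates 13 to 17, *Apoe* counts were 44139, 56084, 46369, 39189 and 50424, and in RC → HFD the lowest, median and highest were 38937, 44815 and 48347. The means were 44281 ± 5929 for RC NoDS (SD, n = 5), 44359 ± 3543 for RC → HFD (n = 6), 47241 ± 6394 for HFD → RC (n = 5) and 50223 ± 6284 for HFD NoDS (n = 5). The order of the means was the same as for *Clu*, but no neighbours in it passed the test. HFD NoDS against RC NoDS gave a log2 fold change of 0.20 (standard error 0.094, edgeR quasi-likelihood test, adjusted p = 0.657), with an unadjusted p under 0.05. In the other pairs it was 0.028 for RC → HFD against RC NoDS (adjusted p = 0.985), 0.12 for HFD → RC against RC NoDS (0.793), 0.17 for HFD NoDS against RC → HFD (0.691), 0.090 for HFD → RC against RC → HFD (0.99992) and −0.083 for HFD → RC against HFD NoDS (0.854). The interaction was 0.055 (standard error 0.130, adjusted p = 0.944).

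**Figure D1:**
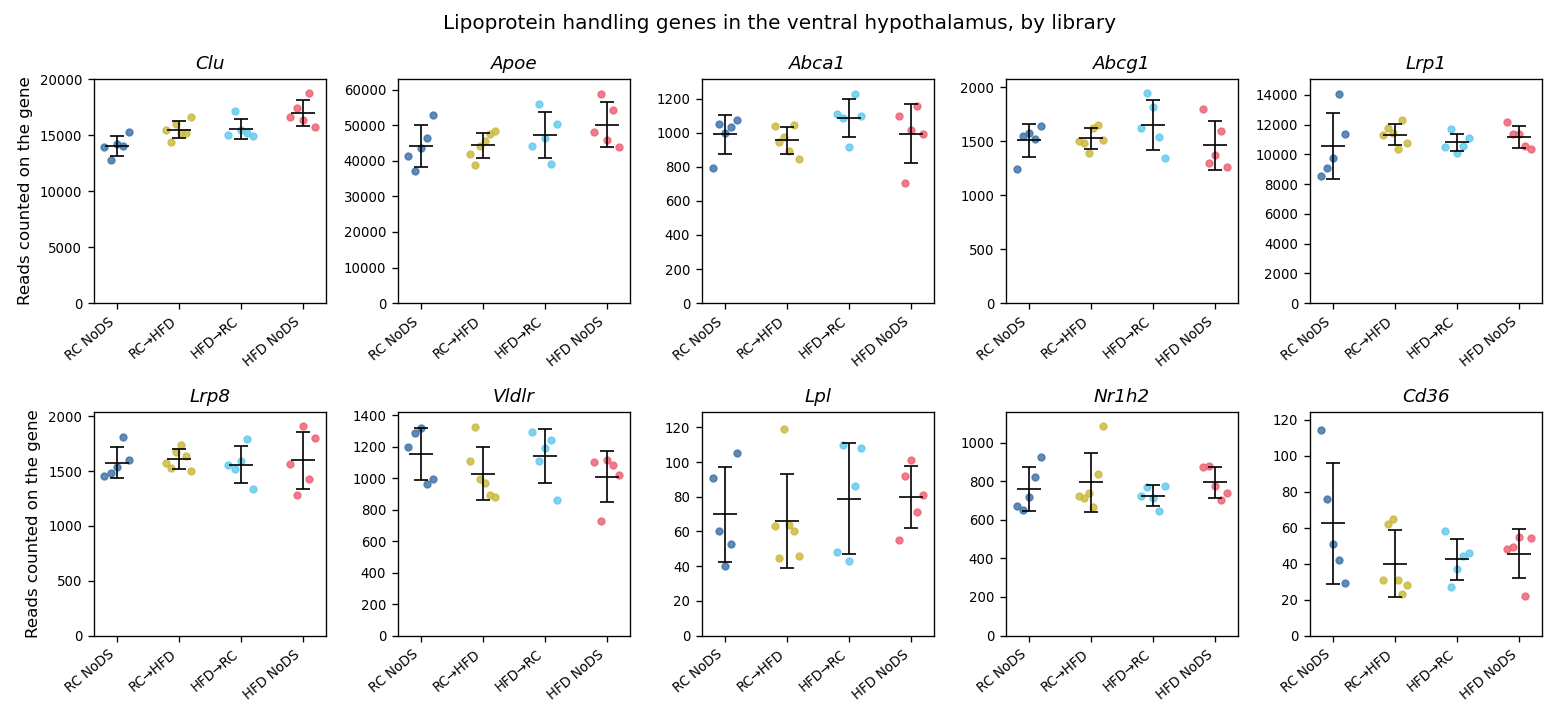
Reads counted on each of the 10 genes (vertical axis, from 0) in every library of the 4 diet groups (horizontal axis), with points for libraries and a line with bars for the group mean ± SD (n = 5, 6, 5 and 5). The 5 HFD NoDS libraries have *Clu* counts from 15716 to 18773, above all 5 RC NoDS libraries (12745 to 15255), whereas these groups overlap for the other 9 genes.

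The lipid exporters showed no difference that passed the test. *Abca1*, which transfers cholesterol and phospholipid to lipid-poor apolipoproteins, ranged from 707 to 1227 counts (chromosome 4 from 53043659 to 53172767, reverse strand). Its mean was 991 ± 114 for RC NoDS (SD, n = 5), 957 ± 78.9 for RC → HFD (n = 6), 1088 ± 112 for HFD → RC (n = 5) and 993 ± 173 for HFD NoDS (n = 5). The log2 fold change between HFD NoDS and RC NoDS was 0.020 (standard error 0.110, edgeR adjusted p = 0.973), and the sign turned when single libraries were left out (from −0.053 to 0.11).

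*Abcg1*, which moves cholesterol onto particles that already carry lipid, ranged from 1244 to 1941 counts (chromosome 17 from 31194643 to 31252722, forward strand). Its mean was 1506 ± 153 for RC NoDS (SD, n = 5), 1526 ± 93.9 for RC → HFD (n = 6), 1651 ± 235 for HFD → RC (n = 5) and 1461 ± 228 for HFD NoDS (n = 5). Like *Abca1*, it had its highest mean in HFD → RC. Between HFD NoDS and RC NoDS, the log2 fold change of *Abcg1* was −0.026 (standard error 0.105, edgeR adjusted p = 0.964), and it turned positive without single libraries of either group (up to 0.027).

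No difference of the receptors *Lrp1*, *Lrp8* and *Vldlr* passed the test. *Lrp1*, a large endocytic receptor for apolipoprotein E and many other ligands, had 8548 to 14054 counts (chromosome 10 from 126975217 to 127058204, reverse strand). Its mean was 10552 ± 2233 for RC NoDS (SD, n = 5), 11328 ± 697 for RC → HFD (n = 6), 10793 ± 602 for HFD → RC (n = 5) and 11169 ± 736 for HFD NoDS (n = 5). Both the lowest and the highest *Lrp1* count of all libraries belonged to RC NoDS, whose coefficient of variation of 21.2% exceeded those of the other groups (5.58% to 6.59%). The log2 fold change between HFD NoDS and RC NoDS was 0.099 (standard error 0.0925, edgeR adjusted p = 0.790).

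*Lrp8* encodes apolipoprotein E receptor 2, which also binds reelin. It had 1286 to 1914 counts (chromosome 4 from 107474866 to 107549445, forward strand), and its group means lay between 1559 ± 166 (SD, n = 5) in HFD → RC and 1610 ± 92.0 (n = 6) in RC → HFD. The highest mean was 3.27% above the lowest, the narrowest range of the 10 genes. *Vldlr*, another reelin receptor, had 726 to 1325 counts (chromosome 19 from 27290974 to 27328721, forward strand). Its mean was 1153 ± 165 (SD, n = 5) in RC NoDS and 1140 ± 169 (n = 5) in HFD → RC, the groups that ended on RC, and 1029 ± 166 (n = 6) in RC → HFD and 1009 ± 163 (n = 5) in HFD NoDS, which ended on HFD. These differences were within the spread of the libraries. Between HFD NoDS and RC NoDS, edgeR gave log2 fold changes of 0.035 for *Lrp8* (standard error 0.0954, adjusted p = 0.941) and −0.17 for *Vldlr* (0.127, adjusted p = 0.736). The sign turned for *Lrp8* without HFD NoDS replicate 21 (−0.035) or 24 (−0.0070), and for *Vldlr* with the share of zero counts as a covariate (0.090).

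*Lpl*, the lipase that frees fatty acids from lipoprotein triglyceride, was near the lower limit of the tested genes (40 to 119 counts, chromosome 8 from 71404390 to 71431347, forward strand). Its mean was 69.8 ± 27.2 for RC NoDS (SD, n = 5), 66.2 ± 27.2 for RC → HFD (n = 6), 79.0 ± 32.0 for HFD → RC (n = 5) and 80.0 ± 18.0 for HFD NoDS (n = 5). Coefficients of variation ran from 22.5% to 41.1%, so these means overlapped widely. Between HFD NoDS and RC NoDS, edgeR gave a log2 fold change of 0.22 with a standard error of 0.335 (adjusted p = 0.881), an error larger than the whole difference of *Clu*.

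*Cd36*, a scavenger receptor and fatty acid transporter, had 22 to 114 counts (chromosome 5 from 17287508 to 17394777, reverse strand). Its counts in RC NoDS replicates 1, 2, 3, 5 and 6 were 114, 76, 51, 42 and 29, against a lowest of 22 and a highest of 55 in HFD NoDS. The RC NoDS mean of 62.4 ± 33.6 (SD, n = 5) was the highest of the 4 groups, the others being 40 ± 18.5 for RC → HFD (n = 6), 42.4 ± 11.5 for HFD → RC (n = 5) and 45.6 ± 13.5 for HFD NoDS (n = 5). That mean rested on 2 libraries with high counts. With genes averaging at least 5 reads included, edgeR gave a log2 fold change of −0.43 between HFD NoDS and RC NoDS for *Cd36* (standard error 0.410, adjusted p = 0.875).

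*Nr1h2*, the liver X receptor of the list, had 644 to 1084 counts (chromosome 7 from 51804986 to 51809321, reverse strand). Its mean was 758 ± 114 for RC NoDS (SD, n = 5), 794 ± 152 for RC → HFD (n = 6), 725 ± 52.8 for HFD → RC (n = 5) and 794 ± 78.0 for HFD NoDS (n = 5). The log2 fold change between HFD NoDS and RC NoDS was 0.086 (standard error 0.124, edgeR adjusted p = 0.872), and it was −0.079 with the share of zero counts as a covariate.

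Of the 9 tested genes, 1 was called in HFD NoDS against RC NoDS (*Clu*, higher), and 7 had values above 0, with a median log2 fold change of 0.086 against 0.0065 for all tested genes. Because the list was chosen with earlier results of these data known, these values describe it and are no test of the pathway. No gene of the list was called by edgeR in the other 6 comparisons. Across all tested genes, those comparisons called 1 gene (0.00783%) for HFD → RC against RC → HFD, 5 (0.0392%) for RC → HFD against RC NoDS and 9 (0.0705%) for HFD → RC against HFD NoDS. They called 36 (0.282%) for HFD → RC against RC NoDS, 2 (0.0157%) for HFD NoDS against RC → HFD and 4 (0.0313%) for the interaction. Because calls were this rare among all genes, a count of 0 among 9 does not show that the list was unchanged. At an unadjusted p under 0.05, the list had 2 genes in HFD NoDS against RC NoDS (*Clu* and *Apoe*), 1 in each of RC → HFD against RC NoDS, HFD → RC against RC NoDS and HFD NoDS against RC → HFD (*Clu* each time), and 0 in the rest. Over all tested genes, the share at an unadjusted p under 0.05 was 7.41% in HFD NoDS against RC NoDS (946 of 12768), 6.51%, 8.10% and 7.49% in the 3 comparisons with 1 gene, in the order given, and 5.35% to 8.84% over all 7. Limma-voom called *Clu* between HFD NoDS and RC NoDS (adjusted p = 0.0358) and 0 genes of the list elsewhere, and so did DESeq2 (adjusted p = 0.00459).

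**Figure D2:**
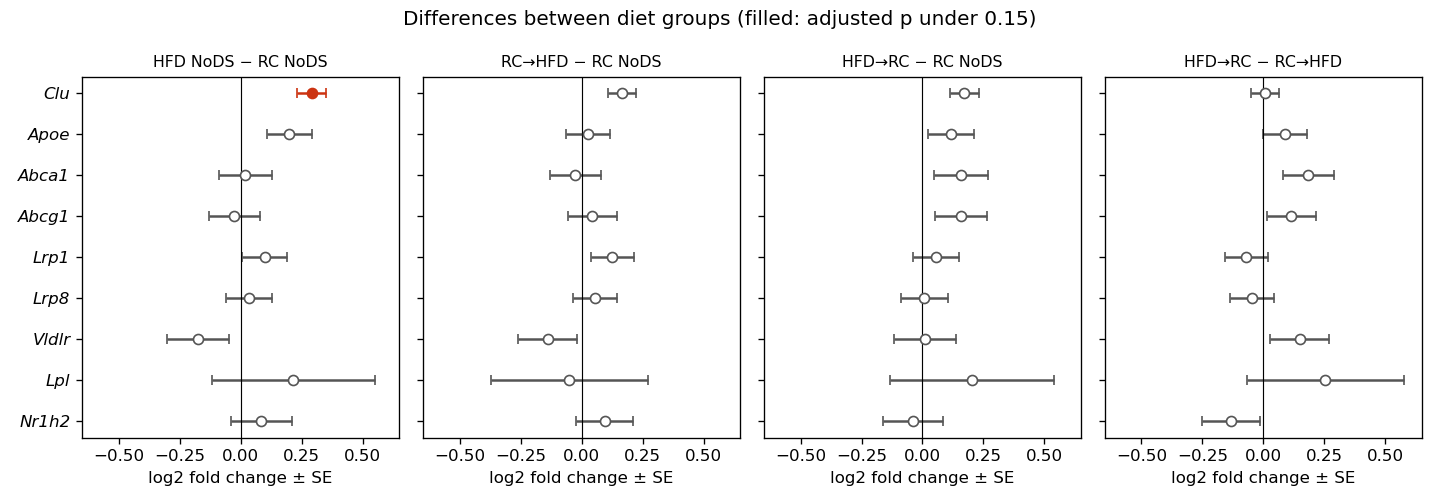
Log2 fold changes of the 9 tested genes (points) with their standard errors (bars) in 4 comparisons of diet groups. The filled point marks the adjusted p under 0.15, *Clu* in HFD NoDS against RC NoDS at 0.29, and the widest bars are those of *Lpl*, with a standard error of 0.335 in the same comparison.

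The wider pathway was followed in 7 lists with 78 further genes, of which 65 were tested. In HFD NoDS against RC NoDS, edgeR called 0 of the 65, with 8 (against 7.41% of all tested genes) at an unadjusted p under 0.05, 40 values above 0 and a median log2 fold change of 0.053. It called 0 in the other 6 comparisons too, with 4 to 8 at an unadjusted p under 0.05, where the share over all tested genes was 5.35% to 8.84%. DESeq2 called *Sort1*, a sorting receptor, in HFD → RC against RC NoDS (0.26, adjusted p = 0.0607), where it called 147 of 12767 genes. It also called *Scd2*, a fatty acid desaturase and liver X receptor target, in HFD → RC against HFD NoDS (0.20, adjusted p = 0.131). In that comparison DESeq2 called 44 of 12767 genes. Limma-voom called 0 of the 65.

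Among other apolipoproteins and lipoprotein remodelling genes, 6 of 13 were tested and 4 had values above 0 in HFD NoDS against RC NoDS. *Apod*, an apolipoprotein made by glia (mean count 2462 over 21 libraries), and *Pltp*, a phospholipid transfer protein (1577), were the most abundant. *Apod* gave a log2 fold change of 0.37 (standard error 0.262, edgeR adjusted p = 0.736) with counts of 1436 to 4619 in HFD NoDS and 1460 to 3375 in RC NoDS. *Mttp*, which loads lipid onto apolipoprotein B, gave −0.18 (0.154, adjusted p = 0.771). The libraries of a group thus differed more in *Apod* than the groups did.

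All 8 further ABC transporters were tested, and 6 had values above 0. The most abundant were *Abca2* (mean count 6884) and *Abca3* (2575). *Abcg4*, a close relative of *Abcg1*, had a mean of 1202 ± 74.7 (SD, n = 5) in RC NoDS and 1418 ± 167 (n = 5) in HFD NoDS, a log2 fold change of 0.26 (standard error 0.0870, unadjusted p = 0.00622, edgeR adjusted p = 0.640). This was close in size to that of *Clu* but its error was larger, and the groups overlapped. *Abca5* gave −0.34 (0.151, adjusted p = 0.657).

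Of 20 receptors and their partners, 18 were tested and 10 had values above 0. The most abundant were *Lrpap1*, a chaperone of the receptor family (mean count 6723), and *Sort1* (3667). The smallest p-values belonged to *Lrp10* (log2 fold change 0.23, standard error 0.111, edgeR adjusted p = 0.657) and *Sorl1*, a sorting receptor that binds apolipoprotein E (0.16, 0.0792, adjusted p = 0.667). Of 10 lipases and their regulators, 7 were tested and 5 had values above 0. *Sel1l* (mean count 3886) and *Pnpla2* (716) were the most abundant, and *Lipa*, the lysosomal acid lipase (0.26, standard error 0.119, adjusted p = 0.657), and *Lmf1*, a factor for lipase maturation (0.26, 0.158, adjusted p = 0.707), had the smallest p-values.

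All 9 partners and targets of liver X receptors were tested, and 5 had values above 0. *Scd2* (mean count 36265) and *Scd1* (5415) were the most abundant. *Scd2* averaged 33583 ± 1198 (SD, n = 5) in HFD NoDS and 37379 ± 2758 (n = 5) in RC NoDS, a log2 fold change of −0.14 that did not pass the test (standard error 0.0513, edgeR adjusted p = 0.640). *Rxrb*, a partner of liver X receptors, gave 0.21 (0.104, adjusted p = 0.667).

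For intracellular cholesterol traffic and turnover, 10 of 11 genes were tested and 7 had values above 0. *Npc2* (mean count 2035) and *Cyp46a1*, the neuronal cholesterol 24-hydroxylase (1974), were the most abundant. *Soat1*, which esterifies cholesterol for storage, averaged 508 ± 30.4 (SD, n = 5) in RC NoDS and 382 ± 52.9 (n = 5) in HFD NoDS, a log2 fold change of −0.39 (standard error 0.1498, edgeR adjusted p = 0.640), and *Npc1* gave 0.16 (0.0872, adjusted p = 0.683). All 7 genes of fatty acid uptake were tested, and 3 had values above 0. The most abundant were the fatty acid transport proteins *Slc27a4* (mean count 2170) and *Slc27a1* (1502). *Slc27a4* gave 0.23 (0.0816, adjusted p = 0.640), and *Fabp7*, the fatty acid binding protein of radial glia and astrocytes, gave −0.30 (0.214, adjusted p = 0.735).

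Markers of the cell types of the tissue were set beside these values. None of the 10 astrocyte markers was called by edgeR, DESeq2 or limma-voom in HFD NoDS against RC NoDS, 3 had an unadjusted p under 0.05 (7.41% of all tested genes did), and the median log2 fold change was 0.029. Their summed count, led by *Aldoc* (31.3% of the sum), was 57596, 60332, 65204, 57247 and 59387 in the RC NoDS libraries in the order of their replicate numbers, and 60372, 68429, 61035, 66013 and 56960 in those of HFD NoDS. The sums overlapped, and 7 of 10 markers had values above 0. *Gfap*, an astrocyte filament gene that is raised in reactive astrocytes, averaged 3635 ± 567 (SD, n = 5) in RC NoDS and 6330 ± 2203 (n = 5) in HFD NoDS (log2 fold change 0.82, standard error 0.220, edgeR adjusted p = 0.601). This was the highest log2 fold change of the 10 astrocyte markers, and the lowest was −0.12.

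All 10 microglia markers had values above 0 in HFD NoDS against RC NoDS, with a median log2 fold change of 0.23, though 0 were called by any of the 3 tools and 4 had an unadjusted p under 0.05, against 7.41% of all tested genes. Their sum, led by *Csf1r* (19.2%), was 7901, 8192, 8346, 7947 and 9029 in RC NoDS and 8620, 9593, 9230, 10585 and 8743 in HFD NoDS. All 10 oligodendrocyte markers also had values above 0, with a median of 0.54, and all 10 had an unadjusted p under 0.05 (7.41% of all tested genes did), but 0 were called by any of the 3 tools. Their sum, led by *Mbp* (46.9%), was 39920, 46248, 57512, 40291 and 59067 in RC NoDS and 61123, 102868, 55629, 100455 and 48036 in HFD NoDS. In HFD NoDS, replicates 20 and 23 had the highest oligodendrocyte sums and the highest *Clu* and *Apoe* counts, and in HFD → RC replicate 14 had the highest of all 3 (sum 144277). The microglia sums were also highest in these 3 libraries (10743 in replicate 14). HFD → RC replicate 13 had the next highest oligodendrocyte sum of all libraries (108657), but the lowest microglia sum of its group (8168) and *Clu* and *Apoe* counts next to the lowest. No defining marker of these 3 cell types was at 0 in all libraries. The part of cell composition in the differences of *Clu* and *Apoe* was not tested.

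Over all 21 libraries, the *Clu* level was set against the sums of the 12 marker lists (Pearson's r of log2(CPM + 1), followed by r with group means subtracted). For these values CPM came from library totals alone, without TMM normalization. The highest values were 0.72 and 0.77 with microglia, 0.64 and 0.66 with oligodendrocytes, and 0.54 and 0.72 with the arcuate nucleus. Before subtraction the lowest were −0.52 with the choroid plexus (−0.42 after it) and −0.25 with red blood cells (0.018 after it). With group means subtracted the lowest was −0.51 with the lateral hypothalamus (0.026 before). For *Apoe* the highest were 0.75 and 0.70 with microglia, 0.70 and 0.73 with the arcuate nucleus, and 0.65 and 0.65 with oligodendrocytes. The lowest for *Apoe* were −0.39 and −0.60 with the lateral hypothalamus. The order of the lists thus depended on whether group means were subtracted. With the astrocyte sum, values were 0.40 and 0.34 for *Clu* and 0.36 and 0.31 for *Apoe*. These values describe the libraries and were not tested.

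In RC → HFD against RC NoDS, where *Clu* had an unadjusted p under 0.05 but was not called, marker lists of several kinds had more such values than the 6.51% of all tested genes. These were all 6 tanycyte markers (all below 0, median −0.46), all 3 red blood cell markers (all below 0, median −1.18), 4 of 6 neuron markers (all 6 above 0, median 0.15), both lateral hypothalamus markers (above 0, median 1.18), 4 of 6 arcuate nucleus markers (3 above 0, median −0.21), 2 of 9 endothelial markers (8 above 0, median 0.11) and 1 of 4 pituitary markers (3 above 0, median 1.09). The other lists, namely 10 astrocyte, 10 microglia, 10 oligodendrocyte, 6 ependymal cell and 2 choroid plexus markers, had 0. EdgeR, DESeq2 and limma-voom each called 2 arcuate nucleus markers, *Agrp* and *Npy* (both lower), and 0 markers of every other list. Among all tested genes, edgeR called 5 (0.0392%) and DESeq2 15 of 12767 in that comparison.

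In HFD → RC against RC NoDS, where *Clu* also had an unadjusted p under 0.05 without a call, edgeR called 5 of 10 oligodendrocyte markers (all higher) and 1 astrocyte marker, *S100b* (0.54, standard error 0.122, adjusted p = 0.115), against 0.282% of all tested genes. DESeq2 called the same 6 markers and limma-voom 0 of them, and 0 markers of the other lists were called by any of the 3. The DESeq2 calls there were 147 of 12767 genes. At an unadjusted p under 0.05, against 8.10% of all tested genes, there were 10 of 10 oligodendrocyte (all above 0, median 0.82), 2 of 10 astrocyte (8 above 0), 2 of 10 microglia (8 above 0), 2 of 6 neuron (all 6 above 0), 2 of 6 tanycyte (all 6 below 0, median −0.31), 1 of 2 choroid plexus, 1 of 4 pituitary, 1 of 6 arcuate nucleus and 1 of 2 lateral hypothalamus markers, and 0 endothelial, ependymal cell and red blood cell markers.

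In HFD NoDS against RC → HFD, the remaining comparison in which *Clu* had an unadjusted p under 0.05, edgeR and limma-voom called 0 markers, and DESeq2 called *Gfap* (1.02, adjusted p = 0.0992) and the tanycyte marker *Crym* (0.64, adjusted p = 0.145). DESeq2 called 32 of 12767 genes there. At an unadjusted p under 0.05, against 7.49% of all tested genes, there were 4 of 10 microglia (9 above 0, median 0.20), 3 of 6 tanycyte (all 6 above 0, median 0.39), 3 of 4 pituitary (1 above 0), 2 of 10 astrocyte (5 above 0), 1 of 6 neuron, 1 of 2 choroid plexus, 1 of 6 arcuate nucleus and 1 of 2 lateral hypothalamus markers, and 0 of the other lists, although all 10 oligodendrocyte markers had values above 0 (median 0.33).

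In HFD NoDS against RC NoDS, edgeR called 3 of 6 arcuate nucleus markers (1 higher, 2 lower) and 1 of 2 lateral hypothalamus markers (*Hcrt*, 2.71, standard error 0.557, adjusted p = 0.0513), the latter not called by limma-voom. *Hcrt* counts ran from 93 to 1051 in HFD NoDS (median 234) and from 28 to 105 in RC NoDS (median 75), so they overlapped. The study reports similar *Hcrt* expression across its groups. Of all tested genes, 10 (0.0783%) were called by edgeR in HFD NoDS against RC NoDS. In the same comparison, edgeR called 0 of 9 endothelial, 0 of 6 neuron, 0 of 6 tanycyte, 0 of 6 ependymal cell, 0 of 2 choroid plexus, 0 of 4 pituitary and 0 of 3 red blood cell markers, and of these 3 neuron and 1 red blood cell markers had an unadjusted p under 0.05, against 7.41% of all tested genes. DESeq2 and limma-voom called 0 of them as well. Summed over red blood cell markers, counts were 2945 ± 428 (SD, n = 5) in RC NoDS and 1897 ± 858 (n = 5) in HFD NoDS.

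*Clu* and *Apoe* varied together across libraries. Pearson's r of log2(CPM + 1), here with TMM normalization, was 0.76 over the 21 libraries and 0.82 after each group mean was subtracted, so the likeness was also present among libraries of the same diet. The points share their sequencing depth, and genes are not independent replicates. *Vldlr* varied opposite to *Apoe* (r = −0.66, and −0.71 with group means subtracted), and *Nr1h2* varied with it (0.61 and 0.67). Of the transporters that share regulation by liver X receptors with *Apoe*, *Abca1* had r of −0.11 and −0.20 with it and *Abcg1* 0.27 and 0.34.

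Among all tested genes, the 5 most like *Clu* by this measure were *Nucb1* (r = 0.82), *Padi2* (0.78), *Tufm* (0.78), *Plekhg3* (0.78) and *Trh* (0.77). *Trh*, the gene of thyrotropin-releasing hormone, was called in HFD NoDS against RC NoDS (1.79, standard error 0.167, edgeR adjusted p = 2.36e-07), and the other 4 were not. With group means subtracted, the 5 were *Pcbp1* (0.85), *Rpl13* (0.83), *Mlc1* (0.82), *Ctss* (0.82) and *Apoe* (0.82), and 0 of the former 5 were among them. *Mlc1* is an astrocyte membrane protein and *Ctss* a lysosomal protease of microglia. The 5 most like *Apoe* were *Ddr1* (0.93), *Cenpb* (0.90), *Lzts2* (0.90), *Arhgdia* (0.90) and *Gnai2* (0.89), and with group means subtracted *Lzts2* (0.94), *Fau* (0.93), *Arhgdia* (0.92), *Gnai2* (0.92) and *Otp* (0.92), of which 3 were shared.

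Promoter windows of 300 bases from RefSeq (GRCm38.p6) were matched for 7 of the 10 genes, among them 3 windows of *Apoe*, but not for *Clu*. Both strands were searched for the STAT letters TTCNNNGAA and the nuclear receptor half-site AGGTCA. The 3 *Apoe* windows held 0 matches to either, the *Lrp1* window held 1 match to the STAT letters, and 1 window each of *Lrp8* and *Cd36* held 1 half-site. Among all 32851 windows, 8.30% held the STAT letters and 16.3% the half-site. A match or its absence in these windows does not show whether a factor binds there.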

How the data were processed

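mRNA was sequenced from VH tissue in 21 libraries, each of 2 pooled mice, with a kit that keeps strand. Whether counting used strand was not established here. *Lrp1* and *Lrp8* are overlapped by annotated genes on the opposite strand and *Abcg1* by a small RNA gene on its own strand, so their counts could include reads of those genes. The authors aligned reads to mm9 (STAR 2.5.1b, runs merged with Picard 2.7.1, per the submitters' processing notes), removed ribosomal RNA and mitochondrial reads, sampled all libraries down to similar depth and deposited the count of reads per gene as whole numbers. After this sampling, every library had nearly the same total, from 16380781 to 16390598.

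Counts were used as deposited. Genes averaging at least 50 reads were normalized by TMM (factors 0.982 to 1.02) and fitted with edgeR 4.0.16 (R 4.3.3, quasi-likelihood F-test, 1 mean per group, all 21 libraries). Benjamini-Hochberg adjustment ran over the 12768 genes, with calls made under 0.15, and the standard error was the absolute log2 fold change divided by the square root of F. There were 7 comparisons, namely the 6 pairs of groups and the interaction (HFD NoDS minus HFD → RC, minus the difference of RC → HFD and RC NoDS). Exon lengths and positions came from the GENCODE annotation of mm9. Groups and replicate numbers were taken from the sample titles. No pair of libraries within a group held identical counts, and chi-square over its degrees of freedom was 6.47 to 38.1 in 45 pairs, so each library was counted as 1 replicate. Intervals of read counts would cover the sampling of reads only.

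The members and lists were chosen with earlier results of these data known. Genes named are all members, every gene of the 7 pathway lists that was called in any comparison, and otherwise the 2 most abundant of each list and the 2 with the smallest p in HFD NoDS against RC NoDS. For likeness, the 5 genes with the highest r with *Clu* and with *Apoe* were taken. *Gfap*, *Crym*, *S100b*, *Hcrt*, *Agrp*, *Npy*, *Sort1* in HFD → RC and *Scd2* in HFD → RC were named after their values were seen. Some marker lists are given with their most abundant gene. There were 12 marker lists, and the sums of each were set against *Clu* and *Apoe* by r after the counts had been seen. Alternatives were DESeq2 1.42.0, limma-voom (limma 3.58.1), genes averaging at least 5 reads, no filter, library size only and only the groups compared. Others were robust dispersion, the share of ribosomal RNA reads or of zero counts as a covariate, and each library left out. DESeq2 adjusted over 12767 of the same genes. Its own filter on mean count was turned off after that filter was seen to leave 886 genes in RC → HFD against RC NoDS. The fit without both libraries of highest zero share was added after seeing the data. The fits were tested on simulated data. The simulated counts did not carry the differing shares of zero counts, so that test does not cover them. Levels and figures were made with Python 3.11.15, numpy 2.4.6, pandas 2.3.3 and matplotlib 3.10.9.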

Additional observations from a re-analysis of the deposited data

Results flagged for a closer look

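Among 40 sets of a gene and a diet group, 5 had a library whose distance to its nearest neighbour was above Dixon's 95% critical value relative to the range of the group (0.71 for 5 libraries and 0.625 for 6). Chance alone marks about 1 in 20 such sets. *Clu* in HFD → RC replicate 14 had 17131 counts, against 15471 for the next library and 14929 for the lowest. Without it, the *Clu* log2 fold change of HFD → RC against RC → HFD was −0.033. The same library had the highest sums of oligodendrocyte (144277) and microglia markers (10743) of all libraries and the next to highest of arcuate nucleus (20688) and endothelial markers (3572), and the part of these in its *Clu* count was not tested. *Abca1* in RC NoDS replicate 1 had 794 counts, with the next at 996. *Vldlr* in HFD NoDS replicate 20 had 726, with the next at 1017. *Lpl* in RC → HFD replicate 9 had 119, with the next at 64. *Cd36* in HFD NoDS replicate 23 had 22, with the next at 48.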

How the results depend on the processing

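No paired analysis was made, because each library pooled mice of a single diet group and the sample titles link no libraries of different groups. In 31 alternatives, 21 of which left out 1 library, *Clu* had a higher value in HFD NoDS than in RC NoDS every time. It was called in 17 of 21 fits without 1 library (log2 fold change 0.26 to 0.32, adjusted p from 0.0276 to 0.285) and in 5 of the other 10 (adjusted p from 0.00459 to 0.864). Members called in that comparison were 0 to 1 without 1 library. They were 0 with no filter (*Clu* 0.28), only the groups compared (0.29), the share of ribosomal RNA reads (0.28) or of zero counts (0.26) as a covariate, and without both libraries of highest zero share (0.28, adjusted p = 0.160), a fit chosen after seeing the data. The cause of these losses was not tested. The other members were called in 0 fits. In these fits *Clu* was called in no other comparison. DESeq2 adjusted over the same genes as the other tools. With its own filter on mean count, which in RC → HFD against RC NoDS left 886 genes, it called 96 genes there, among them *Clu* (adjusted p = 0.0972, against 0.502 without that filter), and the 6 other comparisons kept their counts. For HFD NoDS against RC NoDS, the 14 other pathway genes taken for their p kept their direction and their side of the threshold in all 294 values without 1 library and all 140 of the other alternatives. These genes were picked by p in this same comparison, and their edgeR adjusted p of 0.640 to 0.771 lay far above 0.15. Little change could therefore show in them. In other comparisons, DESeq2, but not edgeR or limma-voom, called *Sort1* (HFD → RC against RC NoDS, adjusted p = 0.0607) and *Scd2* (HFD → RC against HFD NoDS, adjusted p = 0.131).

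Genes called, against 10, 1, 5, 9, 36, 2 and 4 in the order HFD NoDS against RC NoDS, HFD → RC against RC → HFD, RC → HFD against RC NoDS, HFD → RC against HFD NoDS, HFD → RC against RC NoDS, HFD NoDS against RC → HFD, and interaction, moved furthest in these fits, and smaller changes are left out. DESeq2 gave 17, 5, 15, 44, 147, 32 and 116. Limma-voom gave 7 for HFD → RC against RC NoDS and 15 for the interaction. With genes averaging at least 5 reads there were 2 for HFD → RC against RC → HFD, 4 for HFD → RC against HFD NoDS, 1 for HFD NoDS against RC → HFD and 0 for the interaction. With no filter the first 3 of these were 3, 5 and 5. With library size only there were 10 for HFD → RC against RC NoDS and 2 for the interaction. Only the groups compared gave 24 for RC → HFD against RC NoDS, 1 for HFD → RC against HFD NoDS and 4 for HFD NoDS against RC → HFD. Robust dispersion gave 0 for HFD → RC against RC → HFD and 2 for HFD → RC against HFD NoDS. The ribosomal RNA share as a covariate gave 6 for HFD NoDS against RC NoDS, 1 for HFD → RC against HFD NoDS, 1 for HFD NoDS against RC → HFD and 91 for the interaction. The share of zero counts gave 6 for HFD NoDS against RC NoDS, 15 for HFD → RC against HFD NoDS, 1 for HFD → RC against RC NoDS, 1 for HFD NoDS against RC → HFD and 33 for the interaction. Without both libraries of highest zero share there were 2 for HFD → RC against RC → HFD, 14 for RC → HFD against RC NoDS, 3 for HFD → RC against HFD NoDS, 140 for HFD → RC against RC NoDS, 1 for HFD NoDS against RC → HFD and 191 for the interaction.

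Leaving out 1 library gave 5 (RC NoDS 1) to 14 (RC NoDS 6) called genes for HFD NoDS against RC NoDS, 1 to 41 (HFD → RC 16) for HFD → RC against RC → HFD, 4 (RC NoDS 1) to 12 (HFD NoDS 20) for RC → HFD against RC NoDS, 1 (HFD → RC 15) to 13 (RC → HFD 8) for HFD → RC against HFD NoDS, 1 (RC NoDS 1) to 203 (HFD → RC 16) for HFD → RC against RC NoDS, 1 (RC NoDS 3) to 31 (HFD NoDS 19) for HFD NoDS against RC → HFD, and 0 (RC NoDS 1) to 123 (HFD NoDS 20) for the interaction. Where several libraries gave the same number, 1 of them is named.

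Direction changed in these values. *Clu*, HFD → RC against RC → HFD, was −0.0052 with the share of zero counts and −0.033 (without HFD → RC 14) to 0.029 (without RC → HFD 12). *Apoe*, RC → HFD against RC NoDS, was −0.0024 with the ribosomal RNA share, −0.077 with the share of zero counts and −0.034 (without RC NoDS 2) to 0.10 (without RC NoDS 6). *Apoe*, HFD → RC against RC NoDS, was −0.039 with the share of zero counts, and its interaction was −0.015 (without RC NoDS 6) to 0.13 (without HFD → RC 14). For HFD NoDS against RC NoDS, *Abcg1* was 0.00053 with the share of zero counts, 0.0091 without both libraries of highest zero share and −0.11 (without HFD NoDS 19) to 0.027 (without HFD NoDS 24). *Abca1* was −0.053 (without RC NoDS 1) to 0.11 (without HFD NoDS 20), and *Lrp8* −0.035 (without HFD NoDS 21) to 0.096 (without HFD NoDS 20). *Vldlr* was 0.090 and *Nr1h2* −0.079 with the share of zero counts. The cause of these changes was not tested.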
